A study of Rattus norvegicus with 23 samples.

Results

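Male muscle-derived stem cells labelled as non-diabetic (ND-MDSC), from the quadriceps of the hind limb, were kept for 4 days with 5% serum of the obese strain of rats (OZ serum), and their microRNAs (miRs) were compared with those of ND-MDSC that received no agent. The 2 libraries were chosen by their labels, out of 23 in the study, and the miRs by their depth alone, as the 281 of 792 entries that averaged 10 reads or more over both. The study sequenced the small RNA of rat stem cells from limb and pelvic floor muscle after contact with rat serum, palmitate or cholesterol, in 3 sequencing runs. The question that the pair addresses is how the miRs of limb muscle stem cells from non-diabetic rats change on contact with serum of obese rats. Each condition is 1 library, so no difference in the pair has a replicate check, and the ratios below have no p.

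The labels give the sex, the muscle and the word non-diabetic for ND-MDSC, and the paper describes male cells only of early and late diabetes and names another limb muscle. Strain, age and selection of the non-diabetic donors are not given in the sources used here, and the donors of the serum are not given for these cells. The paper describes the OZ serum used on male MDSC as that of male rats of 32 weeks in late diabetes, without naming ND-MDSC. No library of ND-MDSC with serum of lean rats (LZ serum) was analysed here, so a response to the obese strain and a response to any rat serum cannot be told apart in these cells. Other cells used for comparison were ED-MDSC (male, quadriceps, early diabetes, 12 weeks old), ZF4-SC (female, pelvic floor, obese strain, 12 weeks) and ZL4-SC (female, pelvic floor, non-obese strain, 12 weeks), each with no agent and with 5% OZ serum. For the female cells the paper describes serum of female obese-strain rats, so by its account the serum changed with the sex of the cells. A medium with fetal bovine serum is described for the female cells, and none for the male ones. Nothing in the labels says whether a library held 1 culture or several.

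A miR is a short RNA cut from a hairpin precursor, whose 2 arms can each give a mature form (5p and 3p), and it lowers the output of mRNAs that pair with it, mostly through the bases after its first one (the seed). Several miRs often lie in a row on the genome and are made from 1 transcript, and miRs with the same seed form a family that can share targets. In muscle progenitors, miRs are known to act on the choice between division and differentiation, with miR-206 as a marker of skeletal muscle and miR-143 and miR-145 as markers of smooth muscle and mesenchymal cells.

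Mature sequences are shown for some of the miRs described below, 5′ to 3′, with the seed (bases 2 to 8) in capitals. They come from RefSeq for the rat build GRCr8, in which 247 of the 281 members matched by name. The first 4 share the seed AAAGUGC and all had ratios above 1 with OZ serum, while the next 5 set miR-322-5p and miR-503-5p, both higher, beside miR-15b-5p, miR-16-5p and miR-195-5p, which have the seed of miR-322-5p and lay below 1 by library totals.
miR-17-5p: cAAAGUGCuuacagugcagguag
miR-20a-5p: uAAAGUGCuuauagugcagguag
miR-93-5p: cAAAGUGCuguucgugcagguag
miR-106b-5p: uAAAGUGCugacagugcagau
miR-322-5p: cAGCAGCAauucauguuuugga
miR-503-5p: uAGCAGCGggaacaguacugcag
miR-15b-5p: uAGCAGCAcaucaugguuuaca
miR-16-5p: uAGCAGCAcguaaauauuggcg
miR-195-5p: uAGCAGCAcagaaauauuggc

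Abundant miRs that were higher follow, and then the lower miRs of the miR-23, miR-27 and miR-24 clusters, of the miR-143 and miR-145 pair, and miR-204-5p. The members of each pair miR-23a and miR-23b, miR-27a and miR-27b, and miR-221 and miR-222 share a seed.
miR-7a-5p: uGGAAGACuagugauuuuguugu
miR-21-5p: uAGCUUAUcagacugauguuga
miR-10a-5p: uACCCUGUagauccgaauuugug
miR-221-3p: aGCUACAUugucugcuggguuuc
miR-222-3p: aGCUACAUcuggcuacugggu
miR-23a-3p: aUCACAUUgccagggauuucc
miR-23b-3p: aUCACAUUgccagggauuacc
miR-27a-3p: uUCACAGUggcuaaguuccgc
miR-27b-3p: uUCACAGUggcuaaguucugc
miR-24-3p: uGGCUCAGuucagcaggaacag
miR-143-3p: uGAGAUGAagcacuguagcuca
miR-145-3p: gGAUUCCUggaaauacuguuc
miR-204-5p: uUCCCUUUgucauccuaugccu

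The library of ND-MDSC without serum held 7596708 reads assigned to miRs and that with OZ serum 13271580, which is 1.75 times as many, so every count was divided by its library total and a ratio below is the share with OZ serum over the share without. Of the 792 entries, 352 had no read in either library. A further 46 had reads only with OZ serum and 37 only without, with at most 18 reads (miR-326-3p) and 16 reads (miR-24-1-5p), respectively. The 281 members held nearly all reads of both libraries, and 169 of them averaged 100 reads or more. At the limit of the choice stood miR-6317, with 8 and 12 reads without and with serum, as 1 of 2 entries with a mean of 10. Just outside it stood miR-219b, with 12 and 7 reads, as 1 of 3 entries with a mean of 9.5. The exact 95% intervals given with ratios cover only the error of counting, because copies of 1 molecule made by PCR could not be recognised and no second culture was sequenced.

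With OZ serum the miRs of ND-MDSC lay to both sides of their untreated level, and more were 2-fold lower than 2-fold higher by library totals and under TMM. At least 2-fold higher were 18 of the 281 members (6.41%) and at least 2-fold lower were 44 (15.7%), while 149 lay within 1.5-fold. These are shares of all miR reads of a culture, in which fewer cells of a kind and less of a miR per cell cannot be told apart. Most of the largest ratios belonged to rare miRs, and among the 169 members averaging 100 reads or more the counts were 8 higher and 18 lower. The median ratio of all 281 members was 0.886, with 174 below 1. After scaling by TMM, a method that sets the bulk of the miRs level between libraries, the median was 0.987, with 148 below 1, and the members beyond 2-fold were 25 higher and 37 lower. TMM thus moved all ratios up by 0.16 on the log2 scale, so that miRs slightly below 1 by library totals changed sides under it. Median-of-ratios factors set the median at 1.03, with 146 of the 281 members above 1, so the side on which most members lay depended on the scaling.

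**Figure D1:**
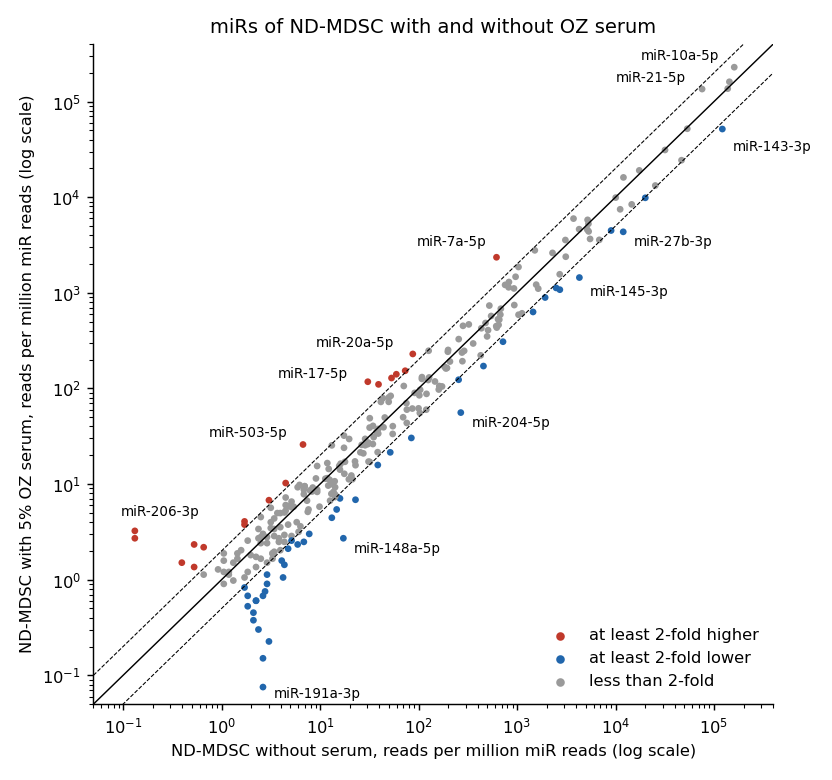
Each point is 1 of the 281 miRs, placed by its reads per 1000000 miR reads in ND-MDSC without serum (horizontal, log scale) and with 5% OZ serum (vertical, log scale). The solid line marks equal shares and the dashed lines 2-fold, with 18 miRs above the upper and 44 on or below the lower dashed line, among them miR-7a-5p above and miR-143-3p below.

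The spread that repeated libraries can show in these data was read from the conditions with 2 libraries, both of ZF4-SC. Between the 2 libraries with the cyclodextrin carrier, of 803975 and 4770210 reads in the same run, 47.3% of 224 miRs averaging 10 reads or more differed by 2-fold or more, and between the 2 untreated libraries, of different runs, 40.1% of 274 did. Of miRs averaging 100 reads or more the shares were 23.6% and 35.8%. In the ND-MDSC pair 22.1% and 15.4% differed so at these 2 levels. Both shares in the ND-MDSC pair were thus below those between repeats of a condition that were shallower or in separate runs. Within the run of ND-MDSC no condition was repeated. LZ serum against no agent in that run, a contrast of treatments in female cells, does not measure the spread of repeats. There 5.26% of the miRs were at least 2-fold higher and 1.75% lower in ZF4-SC, and 4.14% and 2.26% in ZL4-SC. In male ED-MDSC, of another run, the same contrast gave 34.7% higher and 16.5% lower, so small shares with LZ serum were not general.

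The 3 most abundant miRs kept their places while some below them changed, and the top of the profile took a larger share. The 10 most abundant miRs of untreated ND-MDSC held 81.7% of the reads, and the same 10 held 84.4% with OZ serum, while 8 of them were among the 10 most abundant in both libraries. The 3 most abundant of each library held 44.2% without serum and 52.6% with it.

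miR-10a-5p, which lies within a Hox gene cluster, was first in both libraries, with 1219545 reads without serum and 3035826 with it, or 161 and 229 per 1000 miR reads. Its ratio was 1.42 (1.42 to 1.43), and miR-10b-5p, of the same family, had 91451 and 213607 reads, a ratio of 1.34. miR-21-5p, which is linked to fibrosis and growth in many tissues, had 575106 and 1793603 reads, a ratio of 1.79 (1.78 to 1.79). It ranked 5 without serum and 4 with it, and under TMM its ratio was 1.99. These gains were the largest of the profile in share, with 68.2 more miR-10a-5p reads and 59.4 more miR-21-5p reads per 1000.

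In the other direction, miR-143-3p had 923190 reads without serum and 685037 with it, and its share dropped by 69.9 reads per 1000, more than that of any other miR. Its ratio was 0.425 (0.423 to 0.426) although the library with serum was deeper. miR-99a-5p, with 355605 and 323327 reads (0.520), miR-26a-5p, with 192556 and 175744 reads (0.522), and miR-199a-5p, with 152439 and 130766 reads (0.491), were lower as well. miR-26a is known to restrain Ezh2 and to favour differentiation in mouse myoblasts, and miR-199a-5p is cut from the Dnm3os transcript of mesenchymal cells.

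The other 4 of the 10 most abundant miRs kept nearly the same share by library totals. miR-100-5p had 1089076 and 2136988 reads (1.12), miR-99b-5p 1046911 and 1811121 (0.990), miR-146b-5p 406798 and 689868 (0.971) and let-7f-5p 241727 and 413657 (0.980). The last 3 of these moved above 1 under TMM, at 1.10, 1.08 and 1.09, so they have no direction.

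**Figure D2:**
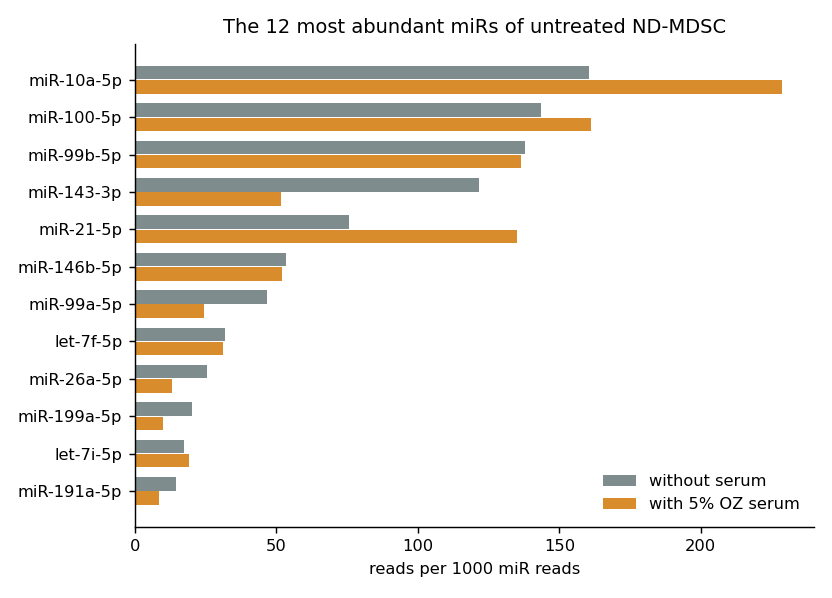
Bars give the reads per 1000 miR reads of the 12 most abundant miRs of untreated ND-MDSC, without serum (grey) and with 5% OZ serum (orange), 1 library each and so without error bars. miR-10a-5p and miR-21-5p took 229 and 135 reads per 1000 with serum, while miR-143-3p went from 122 to 51.6.

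Among the miRs that were higher, those of the miR-17/92 cluster and its paralogues, which promote cell division and are induced by Myc, formed the most even group. All 12 measured members were above 1, while 174 of all 281 lay below 1. At least 2-fold higher were 5, beside 18 of 281. The median ratio was 1.48, beside 0.886 for all 281 members, and 1.65 under TMM, and all 12 were above 1 also under TMM and median-of-ratios scaling. miR-17-5p had 232 reads without serum and 1560 with it, a ratio of 3.85 (3.35 to 4.44). miR-20a-5p had 664 and 3045 reads, a ratio of 2.62 (2.41 to 2.86), and miR-93-5p 404 and 1706, a ratio of 2.42 (2.17 to 2.70). The remaining miR with their seed, miR-106b-5p, was rarer, with 53 and 126 reads, and its interval of 0.980 to 1.91 included 1. So did the intervals of miR-18a-5p (10 and 20 reads), miR-93-3p (24 and 46) and miR-25-5p (34 and 70).

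The miR-17/92 cluster itself lies on chromosome 15 (chr15:98587848-98588632 from the first to the last measured hairpin), and its 6 measured forms were all higher, with a median of 2.25. RefSeq gives the sequence of miR-17-5p a second place on chromosome X (chrX:137343615-137343637, at the gene Mir106a). It places miR-19b-3p and miR-92a-3p in that chromosome X cluster as well. How reads that match several places were assigned is not given in the sources used here. The reads of these 3 miRs thus cannot be split between the places. miR-19b-3p, a further member, had 34 and 136 reads (2.29), and miR-92a-3p, the most abundant, had 5749 and 16059 (1.60). On chromosome 12, miR-25-3p, of the cluster with miR-93, was nearly level, with 4150 and 7594 reads and a ratio of 1.05.

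The cluster of miR-322 and miR-503 on chromosome X (chrX:137720933-137726241), whose human counterpart is miR-424 with miR-503, showed the same direction. Its miRs are known to slow the cell cycle in mouse myoblasts as they leave division. Of its 11 measured members 9 were above 1, also under TMM, while 174 of all 281 lay below 1 (148 under TMM). At least 2-fold higher were 3 (5 under TMM), beside 18 of 281 (25 under TMM). The median was 1.60 (1.78 under TMM), beside 0.886 (0.987) for all members. miR-503-5p had 51 reads without serum and 344 with it, a ratio of 3.86 (2.87 to 5.29), and miR-322-5p 298 and 1464, a ratio of 2.81 (2.48 to 3.20). miR-351-5p, the most abundant of the cluster, had 11509 and 36911 reads (1.84), and miR-542-3p had 962 and 3290 (1.96). Below 1 were miR-450a-3p, with 261 and 348 reads (0.763), and miR-542-5p, with 14 and 16 (0.654). The higher members thus came from 6 neighbouring hairpins, of which 2 had their other arm below 1.

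The seed that miR-322-5p shares with the miR-15/16 family did not go with a common direction. Of the 5 measured miRs with the seed AGCAGCA, miR-322-5p alone was above 1 by library totals. miR-16-5p had 7126 and 9882 reads (0.794), miR-15b-5p 3298 and 5655 (0.981, but 1.09 under TMM) and miR-195-5p 530 and 663 (0.716). The miR-15/16 family as listed, with both arms, had 1 of 8 members above 1 (2 under TMM) and a median of 0.781 (0.871 under TMM). By contrast, the 4 miRs with the seed AAAGUGC were all above 1, with a median of 2.52, and RefSeq places them in clusters on chromosomes 15 and 12, miR-17-5p also on chromosome X.

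miR-7a-5p, which is typical of neurons and endocrine cells and acts on the Egf receptor pathway in human cells, stood out among the more abundant miRs. It moved from rank 54 to rank 30, with 4701 reads without serum and 31240 with it, a ratio of 3.80 (3.69 to 3.92). RefSeq places its sequence on chromosomes 1 and 17, so the source of the reads cannot be told apart. miR-452-5p, which in humans lies in the GABRE gene, had 556 and 2032 reads (2.09), while miR-224-5p, its neighbour there, had 4674 and 5952 (0.729).

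The pair of miR-221 and miR-222, which acts on the cell-cycle inhibitor p27, was moderately higher. miR-221-5p had 28452 reads without serum and 79237 with it (1.59), miR-221-3p 7345 and 19534 (1.52) and miR-222-3p 7861 and 24717 (1.80, 1.75 to 1.85). Its remaining form, miR-222-5p, had 121 and 188 reads and a ratio of 0.889, whose interval of 0.704 to 1.13 included 1 and which lay above 1 under median-of-ratios scaling. The list median was 1.56, or 1.74 under TMM, beside 0.886 and 0.987 for all 281 members. Other miRs of the 15 highest among those averaging 100 reads or more were miR-107-3p, which acts on insulin signalling in mice, with 100 and 337 reads (1.93, 1.54 to 2.44), and miR-155-5p, which is induced by inflammatory signals, with 426 reads with serum and a ratio of 1.83 (1.51 to 2.25).

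**Figure D3:**
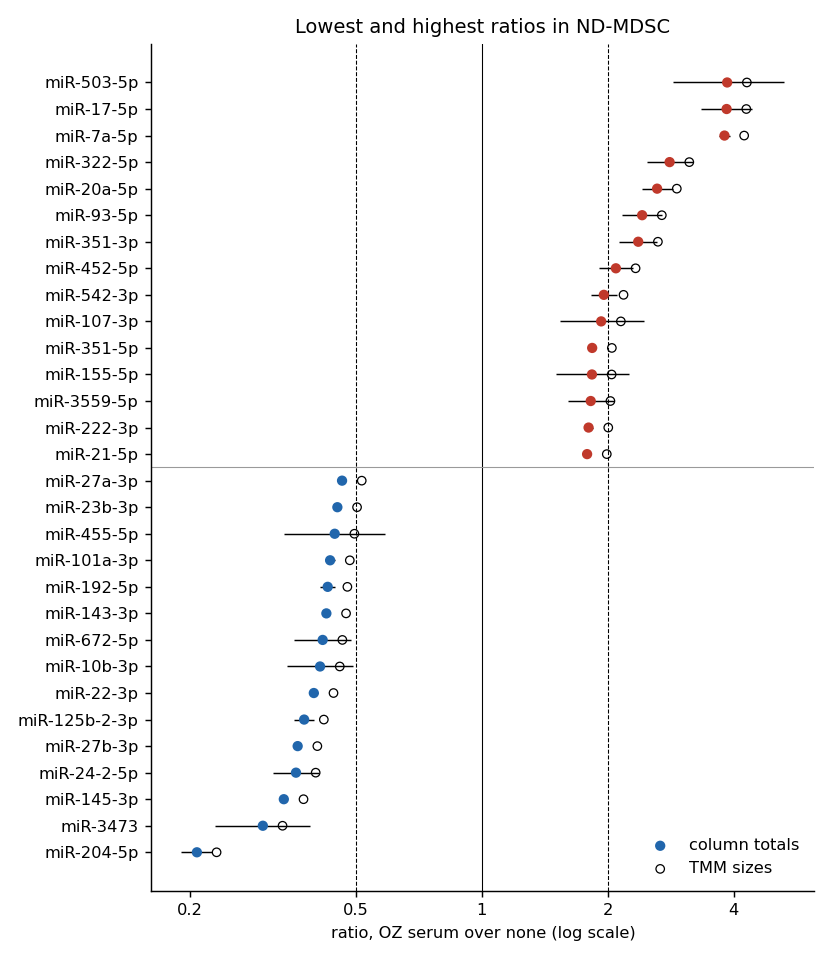
Ratios of the 15 highest and the 15 lowest miRs averaging 100 reads or more in ND-MDSC, on a log scale. Filled points (red higher, blue lower) are ratios by library totals with exact 95% counting intervals, open circles are TMM ratios, and dashed lines mark 2-fold. The points run from 3.86 for miR-503-5p to 0.208 for miR-204-5p, and TMM shifts all of them by the same factor.

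The pair of miR-143 and miR-145, which smooth muscle cells use to keep a contractile state and which lies on chromosome 18 (chr18:57369983-57371453), was lower in all 4 of its forms. The median ratio was 0.472, or 0.526 under TMM, beside 0.886 and 0.987 for all 281 members, of which 174 lay below 1 by library totals. Besides miR-143-3p, miR-145-3p had 32647 reads without serum and 19165 with it, a ratio of 0.336 (0.330 to 0.342). miR-145-5p had 23731 and 31651 reads (0.763) and miR-143-5p 3250 and 2944 (0.519). Only in raw counts, with no scaling for the depth of the libraries, was 1 of the 4 higher.

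The miR-23/27/24 clusters gave the second of the lower groups. Of 9 measured members 8 were below 1, also under TMM, beside 174 of all 281 (148 under TMM). Under median-of-ratios factors 2 of the 9 were above 1. At least 2-fold lower were 5, beside 44 of 281, and under TMM 2, miR-27b-3p and miR-24-2-5p, beside 37 of 281. The median was 0.497 (0.554 under TMM), beside 0.886 (0.987) for all members. miR-27b-3p, which acts on Pax3 in mouse satellite cells, had 90985 reads without serum and 57640 with it, a ratio of 0.363 (0.359 to 0.366). miR-27a-3p, with the same seed and another cluster, had 14654 and 11854 (0.463). miR-23b-3p had 18947 and 14937 reads (0.451) and miR-23a-3p, which acts on ubiquitin ligases of muscle atrophy in mice, 41916 and 48571 (0.663). miR-24-3p, made from both clusters, had 68533 and 59506 reads (0.497). The cluster on chromosome 19 (chr19:40859455-40859843) had all 5 measured forms below 1, and that on chromosome 17 (chr17:1818648-1819482) had 4 of 6 below 1, the RefSeq hairpin Mir3074 on the other strand included. The member above 1 in the list was miR-23b-5p, with 12 and 27 reads and an interval of 0.631 to 2.79.

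miR-204-5p, which acts on Runx2 in mouse mesenchymal progenitors, had the lowest ratio of the miRs averaging 100 reads or more. It had 2040 reads without serum and 742 with it, a ratio of 0.208 (0.191 to 0.227). miR-22-3p, with 20667 and 14311 reads (0.396), miR-101a-3p, with 11051 and 8371 (0.434), and miR-192-5p, which is induced by p53 in human cells, with 5472 and 4090 (0.428), were also lower. In each of these 4 miRs the deeper library held fewer reads.

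Other families were mixed or nearly level. The let-7 family, which restrains growth and rises as cells mature, had 4 of 14 members above 1 (6 under TMM) and a median of 0.823, but its 8 members with the common seed GAGGUAG were split into 4 above and 4 below, and its 5 members that were at least 2-fold lower were rare 3p forms with at most 52 reads. The miR-30 family had 1 of 9 above 1 (2 under TMM) and a median of 0.777, and miR-29, which acts on collagen mRNAs, 1 of 4 and 0.831. The family of miR-148 and miR-152 had 1 of 6 above 1 (2 under TMM) and a median of 0.714. For miR-181, which is known from muscle differentiation in mice, 2 of 7 (3 under TMM) and a median of 0.572 were found, and for miR-132 and miR-212 0 of 4 (1 under TMM) and 0.742. All these medians lay below 1, as did that of all members. Of the family of miR-99, miR-100 and miR-125, 2 of 8 were above 1 (3 under TMM), with a median of 0.569, and its members ranged from 0.376 (miR-125b-2-3p) to 1.60 (miR-99b-3p).

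The 2 lists that the study itself had drawn up, from the ratio of late over early diabetes in male cells, were read in this pair without being independent choices. Of the 12 miRs that it relates to myostatin, the inhibitor of muscle growth, 1 was above 1 (miR-21-5p) and 3 at least 2-fold lower (miR-101a-3p, miR-27a-3p and miR-199a-5p), with a median of 0.672, beside 174 of 281 below 1 and 15.7% at least 2-fold lower among all members. Under TMM 2 were above 1 and 1, miR-101a-3p, at least 2-fold lower. Of its 20 other miRs, 11 were above 1 and 14 under TMM, with a median of 1.07, and 1 was at least 2-fold lower (miR-10b-3p, with 293 and 210 reads).

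**Figure D4:**
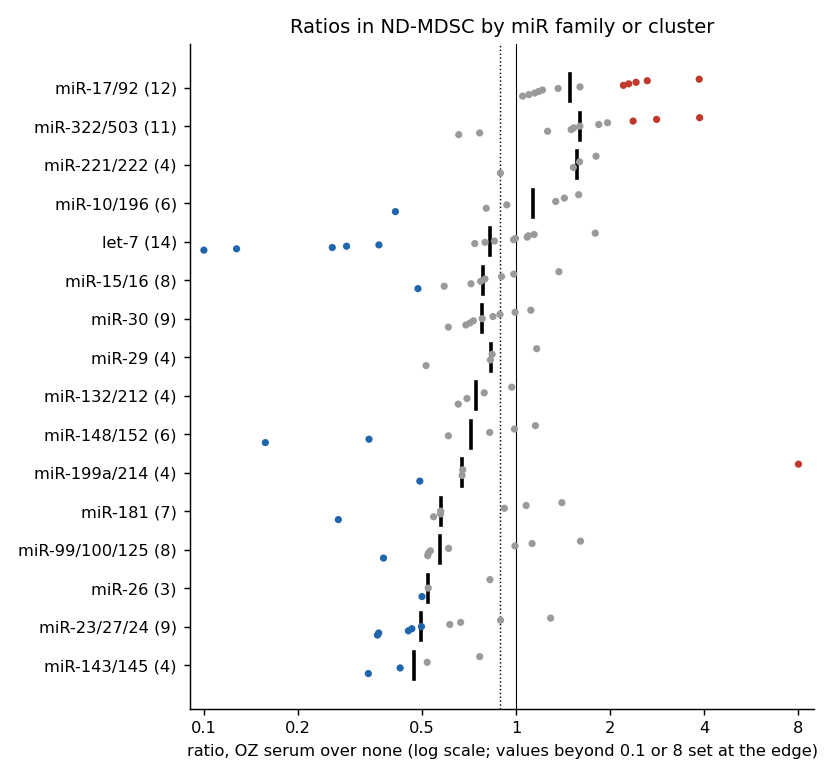
Ratios of the measured members of 16 families or clusters in the ND-MDSC pair (log scale, number of members in brackets). Each point is 1 miR, red if at least 2-fold higher, blue if at least 2-fold lower and grey otherwise, black bars are medians, and the dotted line is the median of all 281 members at 0.886. miR-17/92 lies wholly above 1, while all forms of miR-143 and miR-145 lie below.

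The 2 arms of a hairpin, which are cut from the same precursor, lay on the same side of 1 in 43 of the 69 hairpins with both arms measured, and their ratios lay within 2-fold of each other in 48. Across these hairpins Spearman's rho of the 2 ratios was 0.324, a description only, since the arms share libraries and often 1 arm has few reads. miR-214 had the widest gap, with 12471 and 14678 reads of its 3p arm (0.674) and 1 and 36 reads of its 5p arm. Along the genome, 24 groups of hairpins no more than 10000 bases apart had at least 2 measured hairpins, and in 12 of these all forms were on 1 side of 1 by library totals, 3 higher and 9 lower. These groups share members where a mature sequence has several places. Many of them held few forms, and 174 of all 281 members were below 1 by library totals. No link within groups or between arms is thus read from these counts, and sides under TMM were not counted.

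Markers of other cells were looked at because rat serum brings its own miRs into the culture. For blood cells, 9 of 11 listed entries had reads, with 193 reads in all without serum and 294 with it, or 0.0254 and 0.0222 per 1000. The 3 measured members had a median of 0.726. The most abundant, miR-486, had 134 and 170 reads (0.726, 0.576 to 0.918), miR-451-5p, the miR of red cells, 34 and 96 (1.62, 1.08 to 2.47), and miR-150-5p of lymphocytes 13 and 14 (0.616, 0.269 to 1.42). miR-144, made together with miR-451, had 4 and 1 reads of its 3p and 3 and 0 of its 5p form. miR-223-3p of myeloid cells had 1 and 2 reads, and the liver miR-122-5p 1 and 5. Endothelial miR-126a summed to 546 and 1000 reads, or 0.0719 and 0.0753 per 1000, and the epithelial and endocrine list to 40 and 51. The part of serum miRs in single ratios was not tested.

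Of the cells' own lineages, mesenchymal markers were abundant and striated muscle markers rare. The 16 entries of the mesenchymal and smooth muscle list all had reads, 4207946 without serum and 8163828 with it, or 554 and 615 per 1000. Of its 15 measured members 6 were above 1 and 9 below, with a median of 0.674, beside 0.886 for all members. Of 14 striated muscle entries 2 had reads, namely miR-499-5p with 29 and 33, and miR-206-3p with 1 read without serum and 43 with it. The ratio of miR-206-3p, the highest of all members, was 24.6 with an interval of 4.19 to 994. The listed entries of miR-1 and miR-133, the other main miRs of striated muscle, had 0 reads in both libraries, which allows up to 3 reads in each. The entry miR-1b was not in the list, and its reads were not counted here. miR-214-5p, with 1 and 36 reads (20.6, 3.47 to 836), and miR-191a-3p, with 20 and 1 (0.0286, 0.000691 to 0.179), were other members that rested on a single read in 1 library.

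The other stem cells with OZ serum differed in where the bulk of their miRs lay. In ED-MDSC, 38.5% of 288 miRs were at least 2-fold higher and 15.3% lower, in ZF4-SC 6.09% and 27.2% of 279, and in ZL4-SC 17.9% and 6.72% of 268, each against its own untreated library. Spearman's rho between the ratios of ND-MDSC and those of the others was -0.0757 with ED-MDSC (252 miRs), -0.217 with ZF4-SC (248) and -0.229 with ZL4-SC (239), as a description across miRs that share libraries and have few reads in part. Of the members of the ND-MDSC comparison, 175 of 253 measured were above 1 in ED-MDSC, 70 of 249 in ZF4-SC and 154 of 239 in ZL4-SC, with medians of 1.49, 0.699 and 1.22. Of the miRs at least 2-fold higher in ND-MDSC, 10 of 14 measured were above 1 in ED-MDSC and 8 of 13 in ZL4-SC, close to the shares of all members, and 0 of 15 in ZF4-SC. Those at least 2-fold lower were below 1 in 9 of 36, 25 of 39 and 7 of 33, where of all members 78 of 253, 179 of 249 and 85 of 239 were. No shared direction is read from these counts.

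The miR-17/92 list had 12 of 12 members above 1 in ND-MDSC and 11 of 12 in ED-MDSC, where the median was 2.20, beside 1.49 for all members. In ZF4-SC 1 of 11 was above 1 (median 0.592, beside 0.699), and in ZL4-SC 6 of 11 (1.18, beside 1.22). miR-17-5p had 388 and 555 reads without and with OZ serum in ED-MDSC (2.19), 213 and 146 in ZF4-SC (0.541) and 268 and 116 in ZL4-SC (0.449). For the list of miR-322 and miR-503 the medians were 1.58 in ED-MDSC, 0.523 in ZF4-SC and 1.24 in ZL4-SC, where that of ND-MDSC was 1.60, beside 0.886 for all members. In ED-MDSC and ZL4-SC this list was thus close to the median of all members, and in ZF4-SC both lists were below 1, as were most members there.

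For the lower groups, too, the values are set beside the medians of all members, 1.49 in ED-MDSC, 0.699 in ZF4-SC and 1.22 in ZL4-SC. The median of miR-143 and miR-145 was 1.07 in ED-MDSC, 1.35 in ZF4-SC and 1.25 in ZL4-SC, and miR-143-3p was at 1.34, 1.77 and 1.43, where ND-MDSC had 0.425. The miR-23/27/24 median was 2.84 in ED-MDSC, with all 8 members above 1, 1.04 in ZF4-SC and 1.37 in ZL4-SC, where ND-MDSC had 0.497. The median of miR-143 and miR-145 was thus below that of all members in ED-MDSC as in ND-MDSC, near it in ZL4-SC and above it in ZF4-SC. By share, however, 2 of the 4 forms were above 1 in ED-MDSC, while all 4 were below 1 in ND-MDSC. miR-21-5p was below 1 in the others, with ratios of 0.584 in ED-MDSC and 0.736 in ZL4-SC and with 347361 and 237654 reads in ZF4-SC, where ND-MDSC had 1.79. As a scale for such medians, the 2 untreated ZF4-SC libraries of separate runs gave 0.510 for miR-143 and miR-145, 0.490 for miR-17/92, 0.811 for the miR-322 list, 1.12 for miR-23/27/24 and 0.196 for miR-221 and miR-222, and the 2 cyclodextrin libraries 1.61, 0.636, 0.946, 1.15 and 0.745, in a direction without meaning. The medians of all members between these repeats were 0.795 and 1.11.

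Some miRs took the same direction in all 4 stem cells. The following are examples, and how many miRs did so was not counted, so no shared response is read from them. miR-222-3p was higher in each, with ratios of 1.80 in ND-MDSC, 2.46 in ZF4-SC and 4.20 in ZL4-SC, and with 5615 and 7168 reads in ED-MDSC, where the library with serum was the shallower. Its list, however, had a median of 0.196 between the 2 untreated ZF4-SC libraries of separate runs. miR-148a-5p was lower in each, with 131 and 36 reads in ND-MDSC (0.157) and ratios of 0.324, 0.354 and 0.740 in the others. miR-199a-5p was also below 1 in each, at 0.491, 0.243, 0.427 and 0.922, the last near level. miR-204-5p was low in both male cells, at 0.208 and 0.153, while in the female cells it had at most 19 reads.

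**Figure D5:**
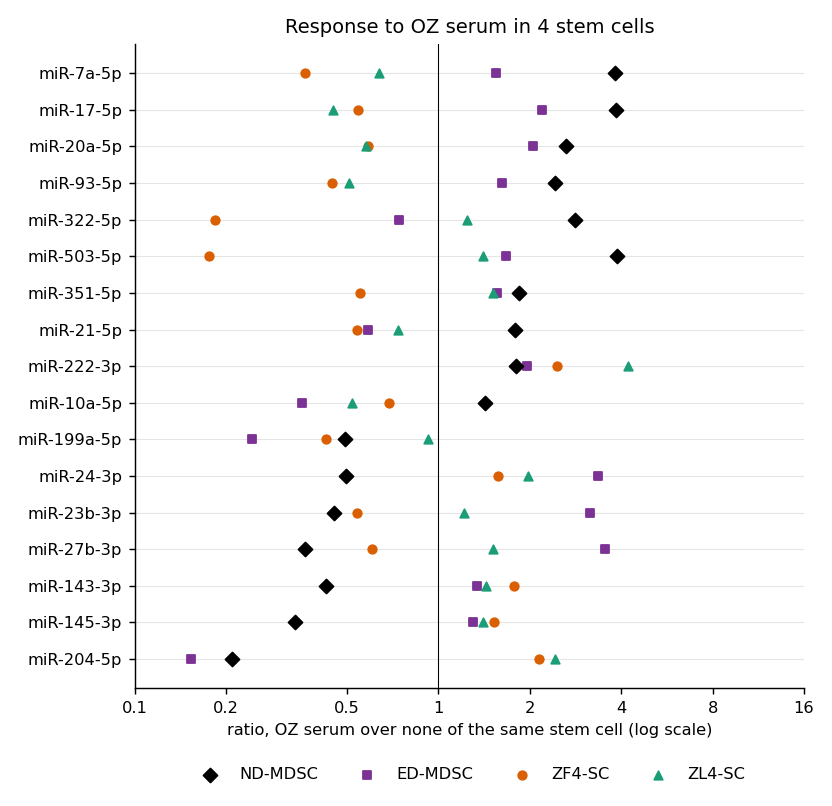
Ratio of OZ serum over none (log scale) for 17 miRs in ND-MDSC (black diamonds), ED-MDSC (purple squares), ZF4-SC (orange circles) and ZL4-SC (green triangles), each point from 2 single libraries. miR-222-3p is right of 1 in all 4 stem cells, while miR-143-3p, miR-145-3p and miR-24-3p are left of 1 in ND-MDSC and right of 1 in the other 3.

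For tests over samples, each treated library was paired with the untreated one of its stem cell by a block. By the paper's account male and female cells received OZ serum of different donors, so the tests do not cover a single serum. In edgeR's quasi-likelihood test of OZ serum against no agent over the 4 stem cells, with 8 libraries and 300 miRs, 0 miRs (0%) passed an adjusted p of 0.05 (Benjamini-Hochberg), 18 had an unadjusted p under 0.05, and the smallest adjusted p was 0.54. miR-222-3p had a log2 change of 1.16 (SE 0.36, adjusted p = 0.54 by edgeR) and was higher in 4 of 4 stem cells, and miR-148a-5p one of -1.69 (SE 0.42, adjusted p = 0.54 by edgeR), lower in 4 of 4. DESeq2 on the same libraries called 4, with miR-222-3p higher and miR-148a-5p, miR-146a-5p and miR-1247-5p lower. Without the block edgeR called 0, with 6 at an unadjusted p under 0.05.

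The difference between the response of ND-MDSC and that of the other 3 stem cells was tested as an interaction in the same 8 libraries. It called 0 of 300 miRs (0%), with 18 at an unadjusted p under 0.05 and a smallest adjusted p of 0.57, and DESeq2 called 0 as well, with 27 at an unadjusted p under 0.05. miR-7a-5p had a difference of 2.93 on the log2 scale (SE 0.71), miR-322-5p 2.84 (SE 0.96), miR-17-5p 2.74 (SE 1.03), miR-21-5p 2.04 (SE 0.77) and miR-24-3p -1.63 (SE 0.63), each with an adjusted p of 0.57 by edgeR. The values for miR-143-3p were -1.31 (SE 0.96, adjusted p = 0.74 by edgeR) and for miR-27b-3p -1.52 (SE 0.78, adjusted p = 0.67 by edgeR). With 2 residual degrees of freedom, the single ND-MDSC pair was assumed to vary like the other cells, so the opposite directions above were not shown to be particular to ND-MDSC.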

How the data were processed

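Small RNA was extracted, made into libraries and sequenced by a service company, and the authors deposited raw whole-number counts of reads for the miRs of miRBase release 18. The aligner, the build and the treatment of reads with several matches are not given in the sources used here. The 2 libraries of ND-MDSC belong to the count table of the serum run, with 7596708 and 13271580 reads. Counts were divided by library totals, and ratios with exact Clopper-Pearson 95% intervals were computed in Python 3.11.15 with scipy 1.17.1. TMM factors came from edgeR 4.0.16 in R 4.3.3 over the 8 libraries of that table. The tests used edgeR's quasi-likelihood fit with TMM, the stem cell as a block and miRs averaging 10 reads or more over 8 libraries, with DESeq2 1.42.0 as the alternative. They were also run on simulated counts with the same mean in all stem cells and a common dispersion. Since the stem cells here differ, that run does not show how the tests perform in these data. ED-MDSC came from another run. The block takes up a level shared by both ED-MDSC libraries, but not a difference in response between runs. Named miRs were the 10 most abundant, the 15 highest and 15 lowest ratios among miRs averaging 100 reads or more, the 10 smallest adjusted p of each direction in each test, and the members of 38 lists. Further miRs were named for their values. The members and lists were chosen with earlier results of these data known.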

Additional observations from a re-analysis of the deposited data

How the results depend on the processing

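The 18 miRs at least 2-fold higher in ND-MDSC became 28 with TMM over the pair, 29 with median-of-ratios factors, 87 with no rescaling, 8 with a mean of at least 100 reads, 62 with no filter and 0.5 reads added, and 9 by the nearer bound of the interval. The 44 at least 2-fold lower became 14 with no rescaling, 18 with a mean of at least 100 reads, 108 with no filter and 23 by the nearer bound. Of 172 ratios of named miRs, 16 changed sides of 1 under TMM, all with a ratio of 0.916 to 0.994 by library totals, and 23 under median-of-ratios factors. No rescaling leaves the difference in depth in the ratios, and most miRs added without the filter have few reads. Over the 4 stem cells, DESeq2 called 4 miRs and edgeR with no filter 5, where edgeR with the filter called 0. Leaving out 1 stem cell at a time gave 0 calls in both tests. Without the stem cell as a block, which pairs each treated library with its untreated one, edgeR also called 0. Depth limits the miRs under 100 reads, and the lack of a second library of either condition limits all ratios, whose spread between cultures of ND-MDSC is unknown.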
